A study of Mus musculus with 4 samples.

Results

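Caveolae are flask-shaped pits of the plasma membrane that are abundant in fibroblasts, endothelial cells, adipocytes and muscle. Caveolins are membrane proteins that bind cholesterol and shape the pit, cavins form a coat on its cytoplasmic side, and EHD2 and the F-BAR proteins of the Pacsin family sit at the neck and stabilise or bend it. When the membrane is stretched, the pits flatten and the cavins leave it. The genes examined here are 3 caveolins (*Cav1*, *Cav2*, *Cav3*), 3 cavins (*Ptrf*, now Cavin1, *Sdpr*, now Cavin2, and *Prkcdbp*, now Cavin3) and the neck genes *Ehd2*, *Pacsin2* and *Pacsin3*. They were taken by symbol, and all 9 were found among 24391 gene symbols.

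RNA-seq was performed on mouse embryonic fibroblasts (MEFs), in 2 WT and 2 *Phf2* KO libraries that the labels number 1 and 2. All 4 libraries carry Phf2 flox/flox alleles and ERCre/+, a tamoxifen-inducible Cre (CreERT2) expressed from the Rosa26 locus. The labels name tamoxifen for the *Phf2* KO libraries and no tamoxifen for the WT libraries. The cells came from E13.5 embryos and were arrested in quiescence, which the protocol describes as 7 days in low serum (2%, charcoal-treated) with 0.5 µM 4-hydroxytamoxifen. That protocol is worded alike for all libraries, although the WT labels state no tamoxifen. None had the drug without floxed *Phf2* or recombination without the drug, so loss of Phf2, Cre activity and the drug cannot be told apart. The study calls them biological replicates, and does not state whether they came from separate embryos or cultures.

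The libraries held between 21094743 and 26094268 counts. The limit of detection was set at 3 counts, which equalled between 0.116 and 0.145 CPM (counts relative to the TMM-scaled library size), and this limit covers counting error only. *Phf2* itself was counted 3244 and 3680 times in WT, against 1454 and 2158 times in *Phf2* KO MEFs, 57.9% of the WT level over the whole gene. Counts per gene do not part deleted from kept exons, so this value does not measure the extent of the deletion. In *Phf2* KO MEFs the study reports depletion of the protein by immunoblot and loss of nearly all its ChIP-seq peaks. All 10 fibroblast markers were above 3 counts in every library, with summed levels of 69561 to 82088 CPM. All 15 macrophage markers were also present, at 3662 and 4165 CPM in the libraries numbered 1 and 796 and 1256 CPM in those numbered 2 (WT, then *Phf2* KO). Smooth muscle markers went the other way, with 1028 and 1117 CPM in the libraries numbered 1 and 1739 and 1522 CPM in those numbered 2. Endothelial markers summed to 51.0 and 44.3 CPM in the libraries numbered 1 and 19.6 and 19.3 CPM in those numbered 2, with *Tie1*, *Emcn* and *Cldn5* at or under 3 counts throughout. Most of this sum came from *Vwf* and *Kdr*, while *Pecam1* and *Cdh5* had at most 6 counts in a library. Adipocyte markers summed to at most 14.2 CPM, most of it from *Fabp4* (*Cidec*, *Lep* and *Retn* at or under 3 counts). Striated muscle markers summed to at most 4.01 CPM (*Myod1*, *Myog*, *Myf5*, *Ckm* and *Myl1* at or under 3 counts) and epithelial markers to at most 1.0 CPM.

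*Cav1* and *Cav2* are neighbours on chromosome 6 of mm9, on the forward strand, with 17219 bases between them. *Cav2* spans 17231185 to 17239115 with 3 exon blocks, and *Cav1* spans 17256335 to 17291452 with 7. Their start regions are shown because the pair lies in a single locus and its members had unlike values in *Phf2* KO MEFs. Each window runs from 250 bases before to 50 bases after the annotated start, 5′ to 3′, from RefSeq (GRCm38.p6). Each matched mm9 exactly, at chr6:17256085-17256384 for *Cav1* and at chr6:17230935-17231234 for *Cav2*. Capitals mark matches to GGGCGG, a core letter string of Sp1 sites, and, in *Cav1*, to TATAAA, on either strand.
Cav1: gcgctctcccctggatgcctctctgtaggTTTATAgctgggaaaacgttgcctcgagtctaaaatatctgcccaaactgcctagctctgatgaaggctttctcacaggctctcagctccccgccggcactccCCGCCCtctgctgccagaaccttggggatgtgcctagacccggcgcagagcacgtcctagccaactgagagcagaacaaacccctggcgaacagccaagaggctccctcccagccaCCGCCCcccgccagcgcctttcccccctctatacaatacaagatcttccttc
Cav2: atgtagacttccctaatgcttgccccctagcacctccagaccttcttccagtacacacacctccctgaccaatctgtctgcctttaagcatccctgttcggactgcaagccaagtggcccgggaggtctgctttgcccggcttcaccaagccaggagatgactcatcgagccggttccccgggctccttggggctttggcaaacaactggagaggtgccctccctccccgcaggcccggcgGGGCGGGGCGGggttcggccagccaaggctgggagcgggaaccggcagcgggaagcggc
The *Cav1* window held GGGCGG on the opposite strand at -118 and -2, and TATAAA on the opposite strand at -221, counted from 0 at the start. The *Cav2* window held GGGCGG on the gene's strand at -9 and -4, which overlap by 1 base. GGGCGG was found in 35.6% and TATAAA in 13.6% of 32817 windows of all genes. Neither window held GGAATG (the core of TEAD sites, in 14.7% of windows), GTAAACA (a FOXO string, in 3.65%) or a CArG box (bound by SRF, in 1.63%). The GC content was 59.3% for *Cav1* and 64.3% for *Cav2*, with 13 and 16 CpG, against medians of 52.7% and 7.0 over all windows. Windows were matched for 8 of the 9 genes. RefSeq has a second *Cav1* start within the gene, and the counts per gene do not part transcripts from the separate starts.

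Levels were first compared between the genes, per kilobase of annotated exon. The cavins *Ptrf* and *Prkcdbp* had the highest levels, and *Cav2* the lowest of the 8 genes that were well above the limit of detection. *Ptrf*, the cavin without which caveolae do not form, was at 98.3 and 131.1 CPM per kb in WT, against 92.8 and 116.3 in *Phf2* KO libraries. *Prkcdbp*, a cavin that binds protein kinase C delta, was at 94.1 and 104.6 in WT, against 93.0 and 97.3 CPM per kb in *Phf2* KO. These ranges overlap, so the order of these cavins was not larger than the spread between libraries. *Ehd2*, an ATPase that holds caveolae at the surface, followed with 55.7 to 74.4 CPM per kb. Below it came *Pacsin2* (33.9 to 37.9) and then *Sdpr*, a cavin that bends membranes (22.4 to 30.7 CPM per kb). *Cav1*, the main caveolin outside muscle, ranged from 11.1 to 21.7 CPM per kb and *Pacsin3* from 5.09 to 7.0. *Cav2*, which needs caveolin 1 to reach the surface, ranged from 2.10 to 2.79 CPM per kb. From *Prkcdbp* down to *Cav2*, no neighbours in this order overlapped over the 4 libraries, although *Sdpr* and *Cav1* came within 1 unit of each other (22.4 and 21.7 CPM per kb). The order rests on exon lengths from GENCODE vM1, while the annotation used for counting is not given. The spread between libraries does not cover an error in these lengths. *Cav3*, the muscle caveolin, was counted 0 and 1 times in WT, against 2 and 0 times in *Phf2* KO, at or under the limit of detection in every library. It was left out by the filter on low counts and no fold is given.

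**Figure D1:**
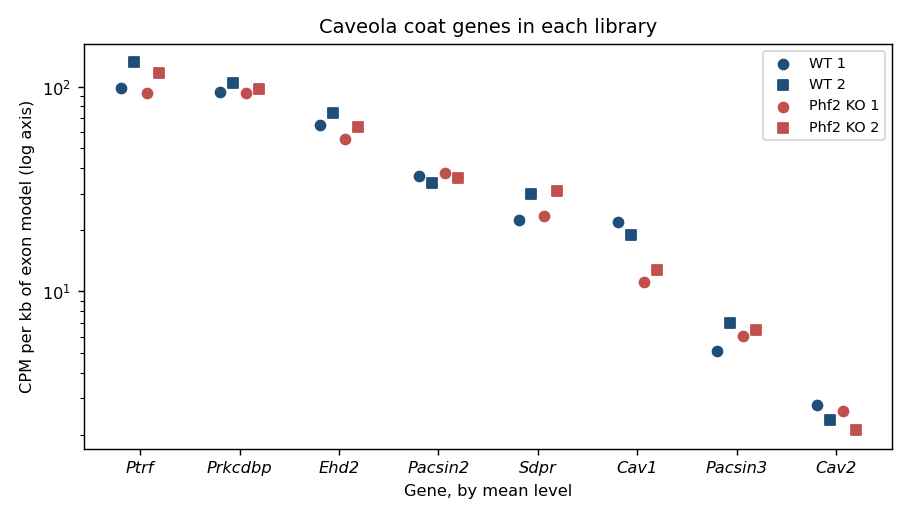
Level of each gene in each library, as CPM per kilobase of exon model on a log axis; blue marks are WT and red marks *Phf2* KO, circles libraries numbered 1 and squares libraries numbered 2. *Cav1* is the gene whose red marks, 11.1 and 12.7, lie well under its blue marks, 21.7 and 18.8.

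The *Phf2* KO libraries were then compared with WT. The genes were chosen by name with earlier results of this comparison known, so their changes are given as a description, without a p-value. Of the 9 genes, 8 passed the filter on low counts, and 0 of 8 passed an adjusted p-value of 0.1 by the quasi-likelihood test of edgeR, with Benjamini-Hochberg adjustment over 13668 genes, where 1 gene (0.00732%) was called. At an unadjusted p-value under 0.05 there was 1 of the 8, *Cav1*, against 4.21% of all genes in either direction and 2.67% in the lower one. With DESeq2 1 of the genes was called, again *Cav1*, against 0.400% of the 15991 genes with an adjusted p-value (0.338% lower). Differences between the numbers were alike in both genotypes, with a Pearson's r of 0.854 across 11556 genes (given below). When edgeR was given replicate number as a block, a pairing the labels do not state, 1 was called, also *Cav1*, against 11.0% of all genes (5.20% lower). Since the comparison was known when the genes were chosen, nothing is read from these counts. The log2 fold changes of the 8 genes ran from -0.77 to 0.06 with a median of -0.09, against 0.01 over all genes tested. Without *Cav1* they ran from -0.22 to 0.06 with a median of -0.06.

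*Cav1* was counted 1797 and 1671 times in WT, against 790 and 1045 times in *Phf2* KO MEFs. Scaled, these were 74.6 and 64.4 CPM in WT, against 38.1 and 43.5 CPM in *Phf2* KO, so both *Phf2* KO libraries lay below both WT libraries. The mean was 69.5 ± 7.18 CPM (SD, n = 2) in WT and 40.8 ± 3.78 CPM (SD, n = 2) in *Phf2* KO, 58.7% of the WT level. The fitted log2 fold change was -0.77 with a standard error (SE) of 0.12. Of all genes tested, 255 (1.87%) had a lower log2 fold change than *Cav1*. Within the libraries numbered 1 the log2 ratio was -0.97, and within those numbered 2 it was -0.57. With each library left out in turn the fitted value stayed between -0.89 and -0.65. Summed fibroblast markers were at 71548 and 69561 CPM in *Phf2* KO, against 76323 and 82088 CPM in WT. Of the 10, 7 were lower and 3 higher, with a median log2 fold change of -0.12, and 48.8% of all genes were lower. Most of the sum came from the matrix genes *Col1a1* (-0.24), *Col1a2* (-0.09), *Fn1* (-0.15) and *Col3a1* (-0.26). *Dcn* had -0.25 and *Lum* -0.75, while *Pdgfra* (-0.04), *Pdgfrb* (0.10), *Thy1* (0.03) and *Vim* (0.02) lay near 0. Summed macrophage markers were higher in *Phf2* KO within each number, at 4165 CPM against 3662 CPM in the libraries numbered 1 and at 1256 CPM against 796 CPM in those numbered 2. The sum leans on *Lyz2*, the most abundant of them, with means of 819.9 CPM in WT and 1150 CPM in *Phf2* KO. In the fit over the 4 libraries, 10 of the 15 were higher and 5 lower, with a median log2 fold change of 0.10. The part of either list in the value of *Cav1* was not tested. In such bulk samples, fewer cells of a type and less RNA per cell cannot be told apart.

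*Cav2*, next to it, had a smaller difference, and the gap between the pair was not tested. It was counted 224 and 204 times in WT, against 181 and 168 times in *Phf2* KO, or 9.29 and 7.86 CPM and 8.74 and 6.99 CPM. The groups overlapped, since *Phf2* KO library 1 lay above WT library 2. Its log2 fold change, -0.13 (SE 0.20), was within 1 SE of 0, and went above 0 without WT replicate 1 (0.01) or *Phf2* KO replicate 2 (0.02). With about 200 counts a library, *Cav2* was the least deeply counted of the 8 genes. The per-kilobase ratio of *Cav1* to *Cav2* was 7.79 and 7.96 in WT, against 4.24 and 6.04 in *Phf2* KO. *Cav1* made up 88.9% and 89.1% of all caveolin counts in WT and 81.2% and 86.2% in *Phf2* KO. By both measures, each *Phf2* KO library lay below each WT library.

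The cavins differed less between the groups than between the replicate numbers. *Ptrf* was counted 12376 and 17774 times in WT, against 10039 and 14601 times in *Phf2* KO, or 513.5 and 685.0 CPM and 484.5 and 607.4 CPM. Its libraries numbered 2 were the higher in each group, and the groups overlapped. Its log2 fold change was -0.13 (SE 0.19), and it was 0.07 without WT replicate 2 and 0.02 without *Phf2* KO replicate 1. *Sdpr* was at 68.5 and 91.5 CPM in WT, against 71.0 and 93.8 CPM in *Phf2* KO, with a log2 fold change of 0.04 (SE 0.20). *Prkcdbp* was at 97.4 and 108.2 CPM in WT, against 96.2 and 100.7 CPM in *Phf2* KO, with a log2 fold change of -0.06 (SE 0.09). Both kept overlapping groups and changes smaller than their standard errors. The per-kilobase ratio of *Ptrf* to *Sdpr* was 4.39 and 4.38 in WT, against 3.99 and 3.78 in *Phf2* KO. That of *Cav1* to *Ptrf* was 0.221 and 0.143 in WT, against 0.120 and 0.109 in *Phf2* KO.

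Of the neck genes, *Ehd2* was the one with groups that did not overlap. Its counts were 7962 and 9844 in WT, against 5888 and 7799 in *Phf2* KO, or 330.3 and 379.4 CPM and 284.2 and 324.4 CPM. The gap between the lowest WT and the highest *Phf2* KO library was small beside the spread within each group. Its log2 fold change was -0.22 (SE 0.12), with -0.22 within the libraries numbered 1 and -0.23 within those numbered 2. It was -0.13 without WT replicate 2 or without *Phf2* KO replicate 1. *Pacsin2*, a widely expressed F-BAR protein that bends membranes, was at 142.2 and 131.6 CPM in WT, against 147.1 and 138.6 CPM in *Phf2* KO, a log2 fold change of 0.06 (SE 0.09). *Pacsin3*, the form found mainly in muscle, was at 5.09 and 7.0 CPM per kb in WT, against 6.02 and 6.51 CPM per kb in *Phf2* KO, a log2 fold change of 0.05 (SE 0.18). Both *Phf2* KO values of *Pacsin3* lay between the WT values, and its log2 ratio was 0.24 within the libraries numbered 1 and -0.11 within those numbered 2. An antisense RNA gene, *Gm17281*, overlaps an exon of *Pacsin3* in the annotation. The other 8 genes share no exon with an annotated neighbour. No 50-base stretch was shared between protein-coding transcripts of any of the 36 pairs among the 9 genes, so exact reads of 50 nt could be told apart among these genes. Their paralogs, pseudogenes and the rest of the genome were not compared.

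**Figure D2:**
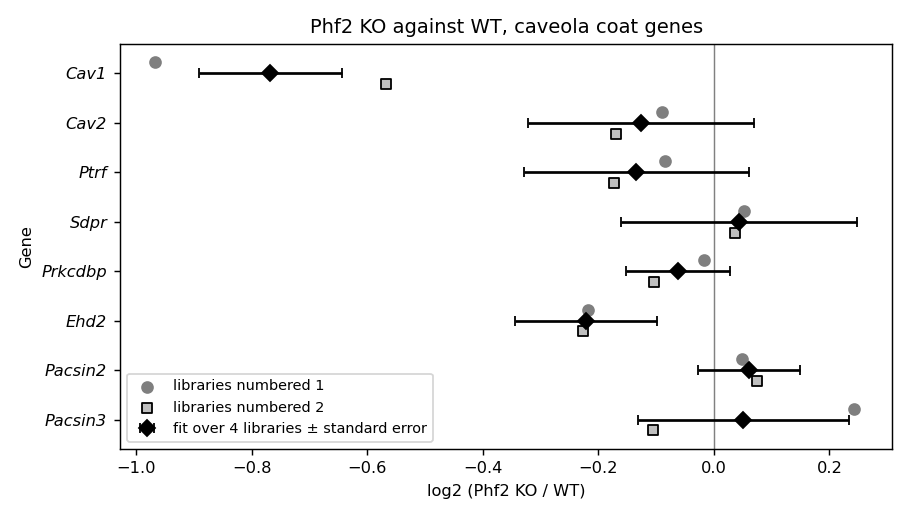
Log2 ratio of *Phf2* KO to WT for the 8 genes tested: black diamonds give the fit over 4 libraries with its standard error, grey circles the ratio within libraries numbered 1 and light squares that within libraries numbered 2. *Cav1* stands at -0.77, with -0.97 and -0.57 within the numbers, and the other 7 lie between -0.22 and 0.06.

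In all, 2 of the 8 genes (25.0%, against 33.5% of all genes with groups that did not overlap in either direction), *Cav1* and *Ehd2*, had both *Phf2* KO libraries below both WT libraries, which 18.0% of all genes tested had, and 0 of 8 had them above, which 15.5% had. Within each replicate number, 5 genes were lower in *Phf2* KO in both numbers (30.2% of all genes) and 2 were higher in both (32.6%). Between the numbers, *Ptrf*, *Sdpr*, *Prkcdbp*, *Ehd2* and *Pacsin3* were lower in the libraries numbered 1 than in those numbered 2 in both groups, 5 of 8 genes against 35.9% of all genes. The largest of these differences was 0.46 log2 units below, for *Pacsin3* in WT, and *Ptrf* lay 0.42 below in WT and 0.33 below in *Phf2* KO. *Cav2* and *Pacsin2* were higher in the libraries numbered 1 in both groups, and *Cav1* was higher in WT and lower in *Phf2* KO. Summed macrophage markers were higher and summed smooth muscle markers lower in the libraries numbered 1, as given above, and their part in these levels was not tested. The difference in *Cav1* between the groups was present within each number.

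The genes around the caveolin pair were set beside it, from all symbols within 500 kb, a choice made after the values of *Cav1* were seen. Of 5 such neighbours, 4 were tested, and 0 of 4 were called (adjusted p = 0.999 or higher from edgeR, Benjamini-Hochberg adjusted). At an unadjusted p-value under 0.05 from edgeR there was 1, *Capza2*, against 4.21% of all genes. *Tes*, which encodes a focal adhesion protein and lies on the far side of *Cav2*, had a log2 fold change of 0.0002 (SE 0.11). *Met*, the hepatocyte growth factor receptor gene and the nearest neighbour beyond *Cav1*, had -0.27 (SE 0.12), and *St7* had -0.23 (SE 0.13). *Capza2*, an actin-capping protein gene between them, was at 60.6 and 60.3 CPM in WT, against 73.0 and 72.3 CPM in *Phf2* KO, a log2 fold change of 0.26 (SE 0.08). The genes of this locus had values on either side of 0, and *Cav1* had the lowest of the 6 tested.

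**Figure D3:**
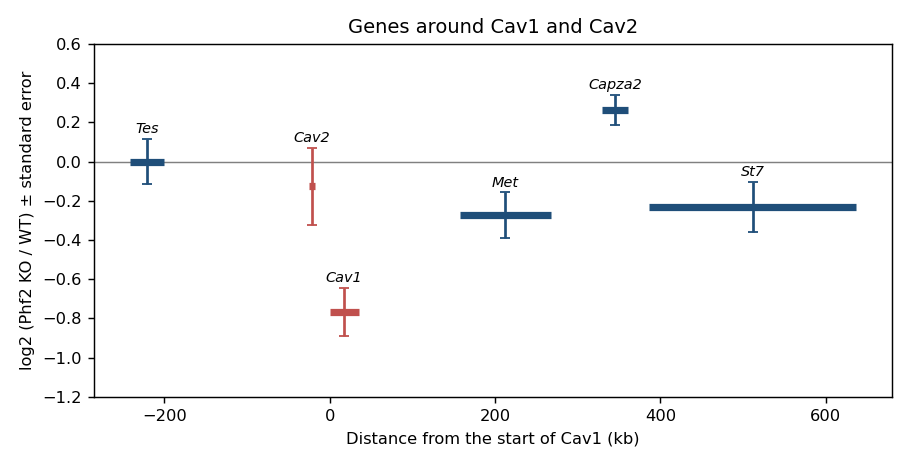
Log2 ratio of *Phf2* KO to WT, with its standard error, for the 6 tested genes within 500 kb of *Cav1* and *Cav2*, against the distance from the start of *Cav1* in kb; thick bars span each gene and red marks the caveolins. *Cav1* lies at -0.77 and *Capza2* at 0.26, with *Cav2*, *Tes*, *Met* and *St7* between them.

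Likeness of pattern was measured over the 4 libraries, as the root mean square difference of centred log2 (CPM + 0.5) values, across 3960 other genes with a mean of at least 50 CPM. It describes these libraries and uses the same comparison. The genes nearest to *Cav1* were *Ghr*, the growth hormone receptor gene (0.112 log2 units), *Ldb2*, a gene for a LIM domain binding protein (0.114), and *Phf2*, the deleted gene (0.118). *Ghr* was at 104.1 and 93.9 CPM in WT, against 62.2 and 73.6 CPM in *Phf2* KO, and *Ldb2* at 106.4 and 93.3 CPM and 45.2 and 57.7 CPM. In each of these 3 genes, as in *Cav1*, *Phf2* KO library 1 was the lowest of the 4. Of the other caveola genes, *Ehd2* was the nearest to *Cav1*, with 210 of the 3960 genes (5.30%) nearer, and *Pacsin3* the farthest, with 3083 nearer. *Cav2* had 781 genes (19.7%) nearer to *Cav1* than itself. *Cav2* and *Pacsin3* were themselves under 50 CPM, so more counting error enters their ranks than those of the compared genes. The measure also grows with the size of a difference, and does not compare shape alone.

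The pattern of *Ptrf* was another one. Its nearest genes were *Athl1* (0.017), *Lynx1* (0.027) and *Palld*, which encodes the actin-bundling protein palladin (0.028). *Palld* was at 581.8 and 813.3 CPM in WT, against 550.9 and 709.0 CPM in *Phf2* KO, highest in the libraries numbered 2. Among the caveola genes *Sdpr* had 77 genes nearer to *Ptrf* (1.94%), *Ehd2* had 124 and *Pacsin3* 299, while *Cav1* had 3738 (94.4%). The limits given above for *Pacsin3* and for the measure hold here too.

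**Figure D4:**
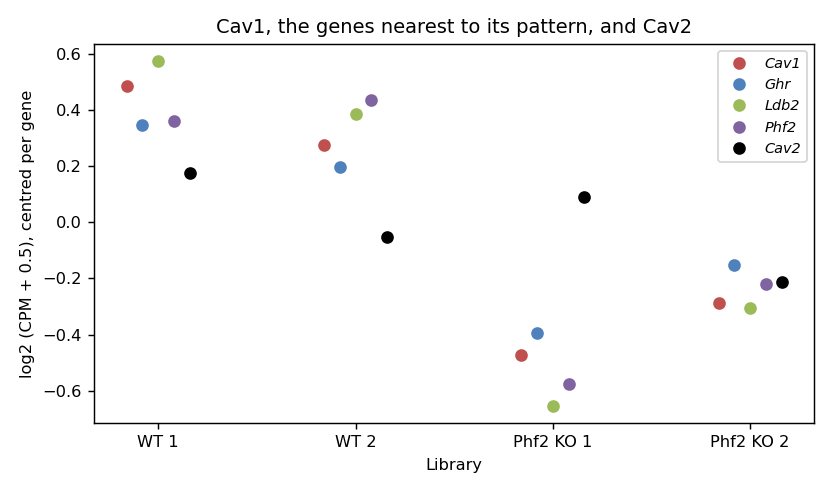
Centred log2 (CPM + 0.5) in each of the 4 libraries for *Cav1*, the 3 genes nearest to its pattern (*Ghr*, *Ldb2*, *Phf2*) and *Cav2*. The first 4 genes lie above 0 in both WT libraries and below 0 in both *Phf2* KO libraries, while *Cav2* lies above 0 in the libraries numbered 1 of both groups.

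Other genes of the caveola, not among the 9, were tested in the same fit from lists of paralogs, of scission and anchoring proteins, and of resident receptors and enzymes. These lists, and those of other coats below, were also chosen with earlier results of these data known. Their counts and p-values are therefore given as a description. Of 22 such genes 20 were tested and 0 were called in either direction by edgeR's quasi-likelihood test, with 0 higher and 3 lower at an unadjusted p-value under 0.05, and DESeq2 called 1 lower. Over all genes the shares were 0.00732% called by edgeR, 2.67% lower at that unadjusted p-value and 0.338% called lower by DESeq2. With the block on replicate number edgeR called 7 of the 20, with *Murc*, *Dnm1* and *Dnm3* lower and *Ehd3*, *Ehd4*, *Plvap* and *Slc2a4* higher, against 11.0% of all genes. The paralog with the highest level per kilobase was *Ehd1*, which acts in endocytic recycling, with a log2 fold change of 0.11 (SE 0.11). *Murc*, the muscle cavin (now Cavin4), was counted 20 and 27 times in WT, against 9 and 4 times in *Phf2* KO. It fitted at -1.65 on the log2 scale (SE 0.55, adjusted p = 0.999 from edgeR, Benjamini-Hochberg adjusted), and this moved to -2.46 without *Phf2* KO replicate 1 and to -1.10 without *Phf2* KO replicate 2. Striated muscle markers summed to 2.66 and 4.01 CPM in WT, against 2.03 and 1.96 CPM in *Phf2* KO beside it, and their part in the value was not tested.

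The dynamins, GTPases that pinch vesicles from the membrane, had unlike values. *Dnm1*, the form best known from neurons, was counted 1594 and 1559 times in WT, against 758 and 735 times in *Phf2* KO. Both *Phf2* KO libraries lay far below both WT libraries, and 18.0% of all genes tested had both below. The fitted log2 value of *Dnm1* was -0.91 (SE 0.13, adjusted p = 0.999 from edgeR, Benjamini-Hochberg adjusted). It stayed between -1.05 and -0.79 with each library left out, and DESeq2 called it lower (adjusted p = 0.000208 from DESeq2). Since the list of *Dnm1* was chosen with earlier results known, this p-value is a description and not an independent test. In the other edgeR fits without a block the adjusted p-value of *Dnm1* lay between 0.676 and 0.9998. *Dnm3* was counted 230 and 212 times in WT, against 133 and 116 times in *Phf2* KO, which fitted at -0.66 on the log2 scale (SE 0.22, adjusted p = 0.999 from edgeR). Other genes lie within the span of *Dnm3*, among them *Dnm3os* on the opposite strand and *AC157798.1* on the same strand. *Ciz1*, *AL808027.1* and *AL808027.2* overlap the span of *Dnm1* on the opposite strand. The reads were mapped as a reverse-stranded library, and the part of these genes in the counts of *Dnm3* and *Dnm1* was not tested. *Dnm2*, the widely expressed form that acts at caveolae and clathrin pits, had a log2 fold change of 0.11 (SE 0.10). Per kilobase, *Dnm2* was at 46.1 to 53.5 CPM, *Dnm1* at 5.83 to 12.6 CPM and *Dnm3* at 0.322 to 0.638 CPM.

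*Flna*, which encodes filamin A and ties caveolin 1 to actin, had the highest level per kilobase of the anchoring genes and a log2 fold change of 0.16 (SE 0.14). Among resident proteins the highest was *Bmpr2*, a receptor for bone morphogenetic proteins, with -0.16 (SE 0.11). *Nos3*, the endothelial nitric oxide synthase gene, was left out by the filter, as was the paralog *Pacsin1*. The median log2 fold change was 0.26 over 4 paralogs, 0.07 over 9 scission and anchoring genes and 0.06 over 7 resident proteins, against 0.01 over all genes tested.

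Coats of other endocytic routes were measured in the same libraries. Of 16 genes for flotillins, stomatins and the clathrin coat, 0 were called in either direction by edgeR's quasi-likelihood test or by DESeq2, with 0 under an unadjusted p-value of 0.05 in the first and 1 in the second. The shares over all genes were 0.00732% called by edgeR, 0.400% by DESeq2 and 4.21% under that unadjusted p-value in edgeR. In DESeq2, 205 higher and 273 lower of 18924 genes were under it. Counts near 0 are what these shares would give for a list of this size. *Flot1*, which encodes a scaffold of membrane rafts, was the highest of its list per kilobase and had a log2 fold change of 0.10 (SE 0.10). *Clta*, the clathrin light chain gene with the highest level per kilobase, had 0.07 (SE 0.14). The 12 clathrin coat genes ran from -0.26 to 0.20 with a median of 0.06, and the 4 flotillin and stomatin genes from -0.07 to 0.10 with a median of -0.06.

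**Figure D5:**
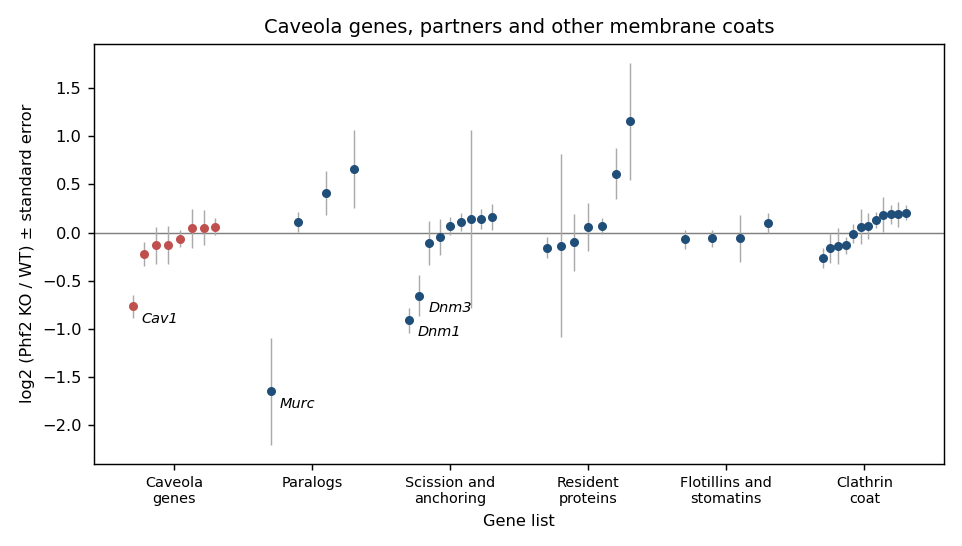
Log2 ratio of *Phf2* KO to WT, with its standard error, for each tested gene of the caveola genes examined here (red) and of 5 lists of other membrane genes (blue), ordered within each list by the ratio. *Cav1*, *Dnm1*, *Dnm3* and *Murc* are named, at -0.77, -0.91, -0.66 and -1.65, and the 16 genes of the other coats lie between -0.26 and 0.20.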

How the data were processed

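RNA-seq counts of 2 WT and 2 *Phf2* KO libraries of MEFs were used. Reads had been trimmed (Trim Galore), cleared of ribosomal RNA (bowtie2), mapped to mm9 by STAR as a reverse-stranded library, and assigned to genes by featureCounts. Versions and the annotation are not given in the sources used here. The counts deposited by the authors are raw and whole. The authors' table of DESeq2 fold changes and p-values was not used.

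Genes were kept by filterByExpr, scaled by TMM and tested for genotype in edgeR 4.0.16 (R 4.3.3, glmQLFit and glmQLFTest, Benjamini-Hochberg, threshold 0.1). Standard errors were derived from the log2 fold change and its F statistic. Alternatives were DESeq2 1.42.0, RLE size factors, no filter (at least 1 count), a threshold of 0.01, the replicate number as a block, and each library left out. Positions and exon lengths came from GENCODE vM1 (NCBIM37, mm9), and start windows from RefSeq (GRCm38.p6), matched to mm9 with Python 3.11.15.

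The genes and lists were chosen with earlier results of these data known. Genes named are the 9 members, *Phf2*, list genes called or with an unadjusted p-value under 0.05, the highest gene of each list, the 3 genes nearest to *Cav1* and to *Ptrf* among those of at least 50 CPM, and others as stated.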

Additional observations from a re-analysis of the deposited data

How the results depend on the processing

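Over all genes, edgeR called 0 genes higher and 1 gene lower, and DESeq2 called 10 and 54. At a threshold of 0.01 it was 0 and 0 (211 and 365 at an unadjusted p-value under 0.05), and with each library left out 0 and 0, with 56 to 377 higher and 157 to 378 lower at an unadjusted p-value under 0.05. Of the caveola genes, DESeq2 called 1 lower (*Cav1*), and of the partner genes 1 lower (*Dnm1*). With the replicate number as a block, edgeR called 789 higher and 711 lower over all genes, 1 caveola gene lower (*Cav1*, log2 fold change -0.76), 4 partner genes higher (*Ehd3*, *Ehd4*, *Plvap* and *Slc2a4*) and 3 lower (*Dnm1*, *Dnm3* and *Murc*), and 1 clathrin coat gene lower (*Picalm*). The block changed no other call on these genes. The labels do not say that a number marks a shared embryo or culture, and the block leaves 1 residual degree of freedom. Across 11556 genes, which are not independent, the log2 ratios of number 1 to number 2 in each genotype had a Pearson's r of 0.854. Libraries of a pair were also compared by chi-square per degree of freedom, which is lower where counts are more alike. It was 18.8 between WT and *Phf2* KO of number 1 and 14.6 between those of number 2. The other pairs lay between 35.1 and 55.1. Size factors by RLE and no filter left 0 caveola, partner and other coat genes called. With each library left out in turn, a fit that takes the lone library of a group to vary like the others, the log2 fold changes ran from -0.30 to 0.024 for *Cav2*, -0.32 to 0.073 for *Ptrf*, -0.17 to 0.25 for *Sdpr*, -0.12 to 0.0005 for *Prkcdbp*, -0.0092 to 0.13 for *Pacsin2* and -0.15 to 0.28 for *Pacsin3*, so their directions were not settled. *Cav1* and *Ehd2* (-0.32 to -0.13) stayed below 0 in each fit. The common dispersion, the fitted spread of counts between libraries, was 0.0451 in the main fit and 0.00363 with the block. The cause of the differences between fits was not tested. *Cav3*, *Nos3* and *Pacsin1* had too few counts to be tested, and *Murc*, *Slc2a4*, *Nt5e* and *Nostrin* had under 100 in every library.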
